A study of Mus musculus with 4 samples.

Results

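The Sox, Hox and Fox genes encode 3 large families of developmental transcription factors, and their transcripts were followed across 4 microarrays of RNA from mouse intestinal epithelium. Members were taken by symbol, as probe sets that carry a single gene symbol made of Sox, Hoxa to Hoxd or Foxa to Foxs followed by a number. This gave 99 genes on 101 probe sets, of 19937 genes measured: 19 Sox, 37 Hox and 43 Fox genes. Sry, which belongs to the same DNA-binding family as the Sox genes, is outside this rule.

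All RNA came from adult C57BL/6 mice, combined from 2 experiments. Tissue had been exposed to ultraviolet light, which links proteins to the RNA they touch. The 4 groups were input RNA, which had no antibody, and precipitations with IgG (a nonspecific control), with an antibody to Msi1 (Musashi1, an RNA-binding protein of progenitor cells), and with an antibody to hnRNP (a class of nuclear RNA-binding proteins; the labels do not say which member). Each group had 1 array made from 100 ng of RNA, so no spread between replicates is known, no difference was tested, and precision is limited by having so few arrays. The comparison with IgG asks which transcripts the Msi1 antibody recovered beyond the control.

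Sox proteins bind DNA through an HMG box, Hox proteins through a homeodomain and Fox proteins through a forkhead domain. In the embryo, Hox genes give cells their position along the body axis and are laid out in 4 clusters in the order in which they act. In the adult gut, Sox9 is active in crypt stem cells and Paneth cells, Foxa1 and Foxa2 take part in secretory cell formation, and Foxf1, Foxf2 and Foxl1 belong to the mesenchyme under the epithelium.

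Values are log2 signals as deposited, and differences are in log2 units, so that 1 is a 2-fold difference. A gene counted as detected where it was above an array's floor, the 95th percentile of 1192 probe sets of olfactory and vomeronasal receptors, genes of sensory neurons of the nose. That floor was 4.09 on the input array, 5.26 with IgG, 4.74 with Msi1 and 5.17 with hnRNP. The labelled tissue was checked against its markers, and 12 of 12 epithelial marker genes, such as Epcam (9.60) and Vil1 (9.53), were above the floor in input. In input, 5 of 7 markers of fibroblasts and stroma and 4 of 7 of immune cells were above the floor, and 0 of 6 each of smooth muscle, of enteric neurons and glia, and of endothelium. In bulk RNA, fewer cells of a type and less RNA per cell cannot be told apart.

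Pooled over the 3 families, these genes were above the floor less often than all genes in input and more often in the precipitations, but not in every family. In input, 40 of the 99 members (40.4%) were above the floor, against 59% of all genes. On the IgG array 54 were (54.5%, against 28.1%), on the Msi1 array 59 (59.6%, against 47.7%) and on the hnRNP array 60 (60.6%, against 32.8%). A total of 28 members were above no floor and 25 were above all 4. The shares were unequal between families. Hox genes were seldom detected in input, at 5 of 37 (13.5%), while 12 of 19 Sox genes (63.2%) and 23 of 43 Fox genes (53.5%) were. In IgG the shares were 63.2% of Sox, 37.8% of Hox and 65.1% of Fox genes. In Msi1 they were 57.9%, 43.2% and 74.4%, with Hox below the share of all genes. In hnRNP they were 73.7%, 43.2% and 69.8%. A list of 88 other developmental regulators, from families that include the Cdx, Pax, Nkx, Lhx, Irx, Tbx, Gata, Dlx, Msx and Pou genes, had 51.1% of genes above the floor in input and 63.6% in IgG. The members are therefore not alone in reading above the IgG floor more often than genes in general.

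**Figure D1:**
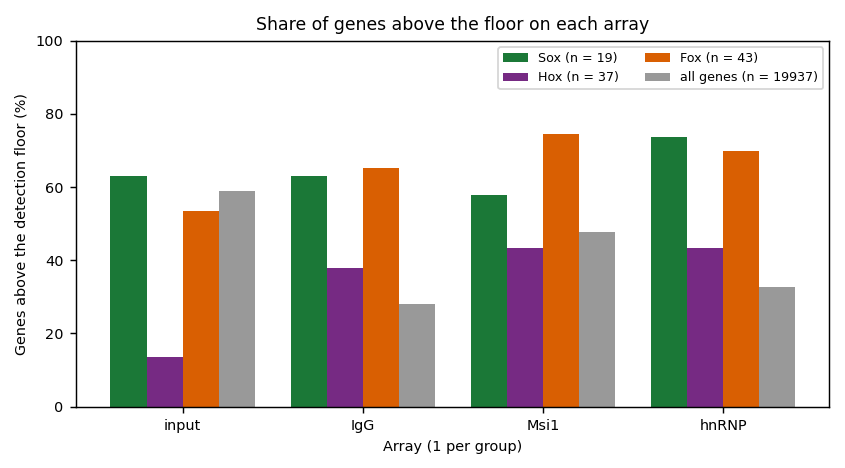
Share of genes above the detection floor on each array (vertical axis, percent) for the Sox, Hox and Fox families and for all genes measured, with 1 array per group and no error bars. Hox genes reach 13.5% in input, and on the IgG and hnRNP arrays every family exceeds the share of all genes.

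The values of the members lay mostly close to the floors. Their median was 3.85 on the input array, 5.36 with IgG, 4.95 with Msi1 and 5.40 with hnRNP, while the receptor genes had medians of 2.93, 3.90, 3.55 and 3.83. The array that read highest was hnRNP for 51 members (51.5%), IgG for 30 (30.3%), input for 13 (13.1%) and Msi1 for 5 (5.05%). In the same order, the shares were 27.4%, 27.7%, 36.2% and 8.75% of all genes. For receptor genes they were 37.5%, 49%, 1.1% and 12.4%. Of the 13 members highest in input, 11 were Fox genes, 2 were Sox genes and 0 were Hox genes.

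**Figure D2:**
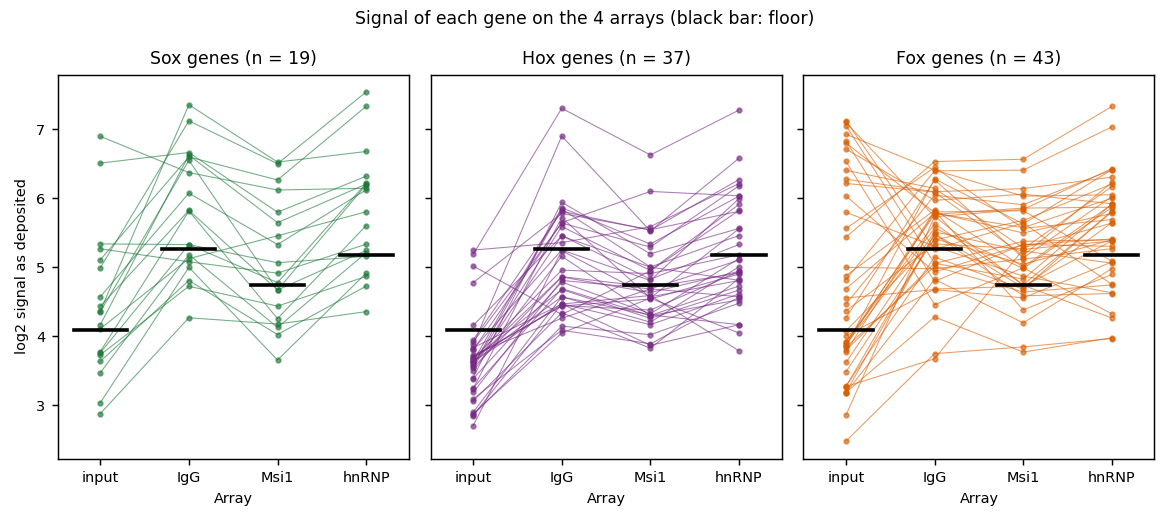
Log2 signal (vertical axis) of every Sox, Hox and Fox gene on the 4 arrays, 1 line per gene, with a black bar at each array's floor. Most Hox lines start below the input floor of 4.09, while a group of Fox lines starts near the top in input, up to 7.12, and reads lower in the precipitations.

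In Msi1 against IgG, 1 member passed 2-fold on the higher side and 7 on the lower side. Only the 67 members detected with Msi1 or with IgG could be called, and the other 32 were below both floors. Over all genes so detected, 18.6% passed 2-fold on the higher side and 6.92% on the lower side. Of detected receptor genes, 3.49% were higher and 27.9% lower. The share of members higher was 1.49% and the share lower 10.4%. The median difference of the detected members was −0.37, against 0.06 for all detected genes and −0.48 for detected receptor genes. By family, the medians were −0.68 for Sox, −0.45 for Hox and −0.22 for Fox. Centring each array on its median would add 0.13 to every difference. For 6 of the 8 called members one of the 2 values was below its floor. With the dimmer value raised to its floor, 0 members were higher and 6 lower, against 10.8% and 3.86% of all genes. Of the 40 members above the input floor, 39 were detected here, and 0 were higher and 3 lower (7.69%), while 21.4% of all genes above the input floor were higher and 4.54% lower.

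**Figure D3:**
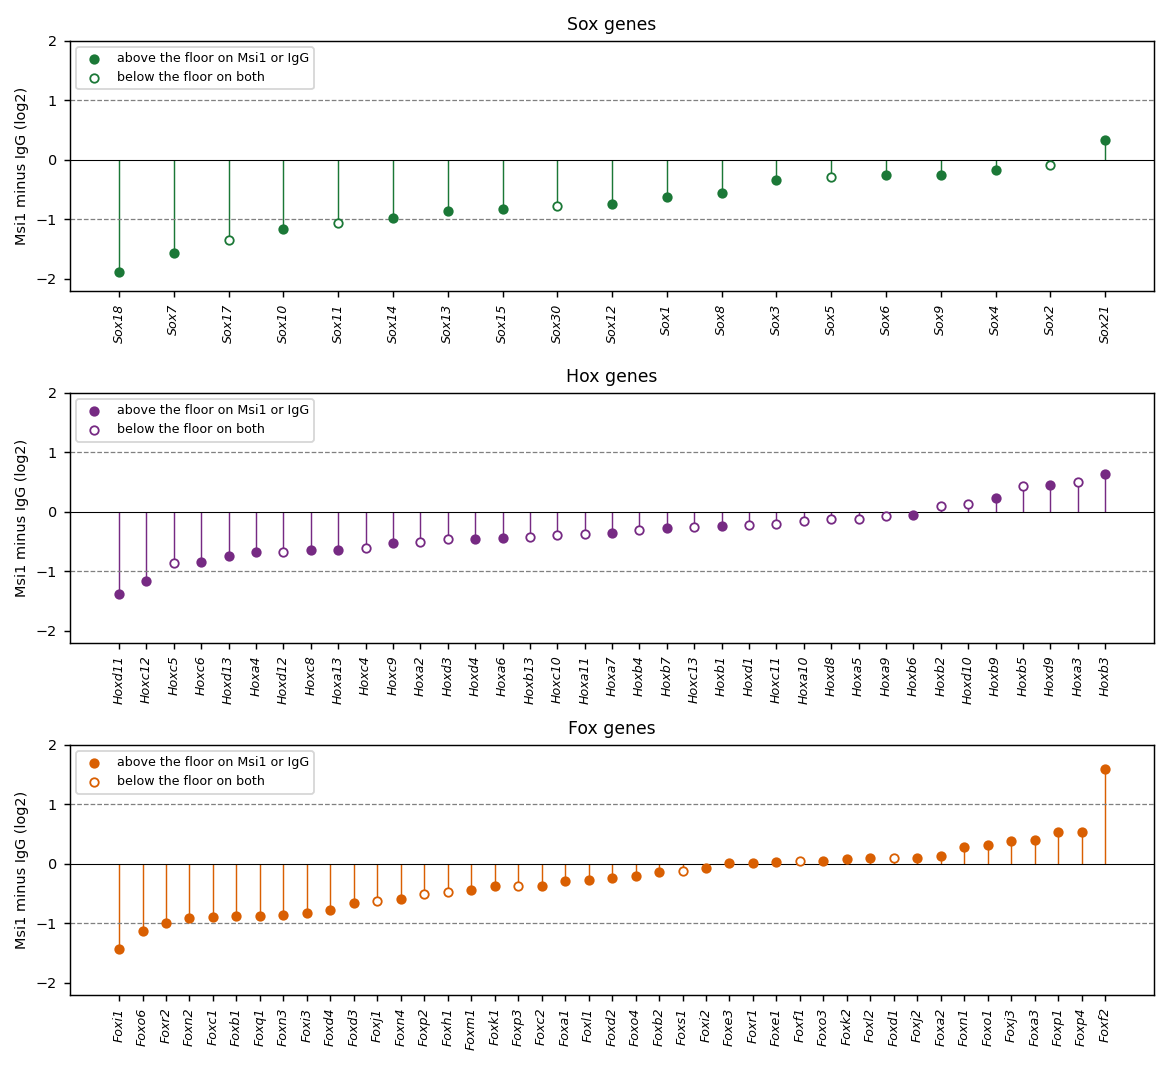
Difference between the Msi1 and IgG arrays (vertical axis, log2 units) for each Sox, Hox and Fox gene, ordered within its family, with dashed lines at 2-fold. Filled points were above the floor on Msi1 or IgG, and open points below it on both. Sox18 at −1.88 is the lowest and Foxf2 at 1.59 the highest.

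Among the Sox genes, 18 of 19 read lower in Msi1 than in IgG, counting genes below both floors. So did 12073 of all 19937 genes and 876 of 1178 receptor genes. Of the 14 Sox genes detected, 3 passed 2-fold on the lower side (21.4%) and 0 on the higher. That lower share compares with 6.92% of all detected genes and 27.9% of detected receptor genes. The difference of Sox2 (−0.09) turns positive when arrays are centred on their medians. The lowest difference was that of Sox18, a gene of lymphatic and blood vessel endothelium. It read 4.35 on the input array, 6.55 with IgG, 4.67 with Msi1 and 6.20 with hnRNP, so the IgG and hnRNP arrays were high and the Msi1 array was below its floor. The fold from IgG to Msi1 was at least 3.51. The difference was −1.88, and its call held in 11 of 12 other settings, being lost where detection on both arrays was required. The other lower calls in this comparison held in fewer of the 12 settings. These were Hoxd11 with 10, Sox7, Foxi1 and Foxo6 with 9 each, Sox10 with 8 and Hoxc12 with 7.

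Sox18 belongs with Sox7 and Sox17 to the SoxF group, whose members act together in vessel formation. Sox7 read 3.77 on the input array, 5.81 with IgG, 4.25 with Msi1 and 5.60 with hnRNP, and was at least 2.11-fold lower in Msi1 than in IgG. Sox17, which also acts in definitive endoderm, read 3.03 on the input array, 3.65 with Msi1 and 4.91 with hnRNP, and IgG was 1.96 above input. It was below every floor, and its difference of −1.34 was not called. All 3 genes of the group had the same order of arrays, with IgG highest, then hnRNP, then Msi1, then input. The array floors and the receptor medians have that same order, so it is not particular to the group. Of 6 endothelial markers, 3 were detected in Msi1 or IgG and 0 were 2-fold apart. Their median difference was −0.69, led by Cdh5 at −0.86, with Kdr at 0.62. The list's median signal was 3.30 on the input array, 4.73 with IgG, 4.56 with Msi1 and 4.95 with hnRNP, and its part in the SoxF values was not tested.

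In the SoxE group, Sox10, a regulator of neural crest and enteric glia, read 4.43 on the input array, 5.82 with IgG, 4.67 with Msi1 and 5.24 with hnRNP, at least 2.12-fold lower in Msi1 than in IgG. Of 6 markers of enteric neurons and glia, 1 was detected on either of these 2 arrays, Uchl1, with a difference of −0.34. The list's median was 3.64 on the input array, 4.30 with IgG, 3.69 with Msi1 and 4.20 with hnRNP, and its part in the Sox10 value was not tested. Sox9, the crypt gene of the same group, read 6.90 on the input array, 6.37 with IgG, 6.12 with Msi1 and 6.14 with hnRNP. It was above every floor, and its Msi1 and hnRNP values lay 0.25 and 0.23 below IgG. Sox8, the third of the group, was 2.71-fold lower in Msi1 (4.78) than in hnRNP (6.21).

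The SoxD genes Sox6 and Sox13, which lack an activation domain of their own, were detected in input. Sox13 read 6.51 on the input array, 6.66 with IgG, 5.80 with Msi1 and 6.32 with hnRNP, a difference of −0.87 in Msi1 against IgG. Sox6 stayed between 5.06 and 5.34 on all 4 arrays. In the SoxC group, Sox4, a gene of progenitor cells in the gut, stayed between 4.91 and 5.33. Its relative Sox12 read 4.57 on the input array, 6.07 with IgG, 5.33 with Msi1 and 6.12 with hnRNP. These 4 genes were within 2-fold in Msi1 against IgG, and Sox13 came nearest to it.

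The neural Sox genes of groups B1 and B2 had their lowest signal in input. Sox1 read 4.99 on the input array, 7.12 with IgG, 6.50 with Msi1 and 7.54 with hnRNP. Sox3 read 5.11, 6.60, 6.26 and 7.33 in the same order, and Sox14 4.16, 6.62, 5.64 and 6.20. Sox2, a stem cell factor of the nervous system and foregut, was below the floor on all 4 arrays. Sox21 was the one Sox gene that read higher in Msi1 (5.45) than in IgG (5.12), by 0.33. The SoxG gene Sox15 read 4.36 on the input array, 7.36 with IgG, 6.52 with Msi1 and 6.68 with hnRNP. It was 7.96-fold higher in IgG than in input, with both values above the floor.

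Msi1 was the lowest of the 3 precipitations for 18 of the 19 Sox genes (94.7%). The same held for 28 of 37 Hox genes (75.7%), 23 of 43 Fox genes (53.5%), 49.1% of all genes and 57.9% of receptor genes. Against hnRNP, 6 of 15 detected Sox genes passed 2-fold on the lower side and 0 on the higher. These were Sox18 (−1.53), Sox8 (−1.44), Sox7 (−1.35), Sox11 (−1.08), Sox3 (−1.07) and Sox1 (−1.04). Of all genes detected in that comparison, 7.77% were lower and 17.5% higher. Of detected receptor genes, 20% were lower and 4.44% higher, and of the 67 detected members 19.4% were lower. Lower Hox genes were 3 of 17, namely Hoxa6 (−1.19), Hoxd11 (−1.05) and Hoxc12 (at least 1.76-fold). Lower Fox genes were 4 of 35, namely Foxh1 (−1.14), Foxd2 (−1.09), Foxn2 (−1.06) and Foxb1 (−1.05). With dimmer values raised, 10 members were lower and 0 higher, against 4.03% and 10.9% of all genes. With each array centred on its median, 3 Sox and 1 Hox gene were lower, and 1 Fox gene was higher and 1 lower. Quantile normalization gave 1 Fox gene higher and 12 lower. The comparisons of Msi1 with IgG and with hnRNP share the Msi1 array.

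Of the 17 Hox genes detected in Msi1 or IgG, 0 passed 2-fold on the higher side and 2 on the lower (11.8%). Over all detected genes 6.92% were lower, and over detected receptor genes 27.9%. Both lower genes are posterior ones, which act in the hind part of the body axis and the limbs. Measured from the receptor median, an alternative added after the data were seen, 1 Hox gene was higher and 0 lower. Hoxd11 read 3.87 on the input array, 6.90 with IgG, 5.53 with Msi1 and 6.58 with hnRNP, so it was above the floor in every precipitation and below it in input. It was 2.60-fold lower in Msi1 than in IgG. Hoxc12 read 3.24, 5.72, 4.55 and 5.56 in the same order. Its difference of −1.17 became at least 1.97-fold once the Msi1 value was raised to the floor.

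**Figure D4:**
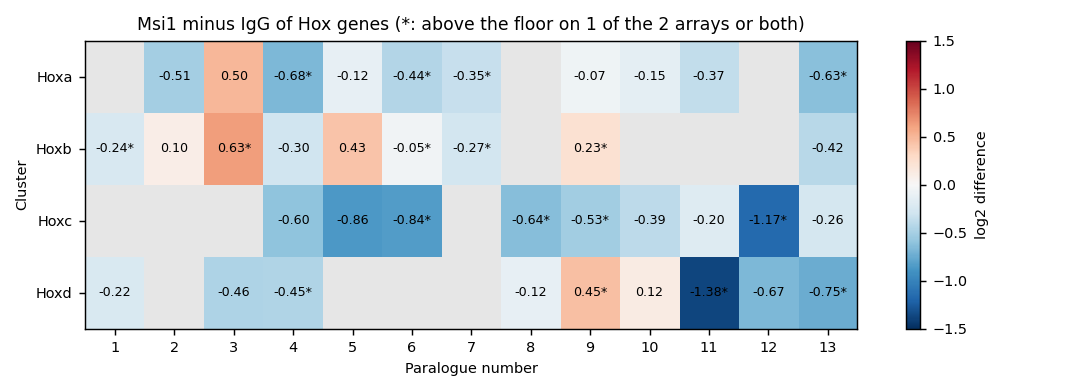
Msi1 minus IgG (colour and number, log2 units) for each Hox gene, placed by cluster (rows) and paralogue number (columns), with grey where no value is shown. Stars mark genes detected with Msi1 or with IgG. The Hoxc row lies below 0 throughout, from −1.17 to −0.20, and the Hoxb row spans −0.42 to 0.63.

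By cluster, all 9 Hoxc genes read lower in Msi1 than in IgG, as did 9 of 10 Hoxa, 7 of 9 Hoxd and 5 of 9 Hoxb genes. Many of these signs rest on values below the floor: 5 Hoxc, 6 Hoxa, 5 Hoxd and 4 Hoxb genes were above no floor. Over all genes measured, 39.4% read higher in Msi1 than in IgG, and of the receptor genes 25.6%. Hoxb3, an anterior gene of the hindbrain and pharynx, had the highest Hox value in this comparison. It read 5.02 on the input array, 4.31 with IgG, 4.95 with Msi1 and 5.82 with hnRNP, a difference of 0.63. It was also the only Hox gene that read lower in IgG than in input (−0.70) and the only one past 2-fold over IgG in hnRNP. That difference of 1.51 shrank to at least 1.47-fold once the IgG value was raised to its floor, so it is under 2-fold by that measure. The neighbour of Hoxb3 on the paralogue scale, Hoxb4, was below the floor on every array.

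By paralogue number, detected genes numbered 4 of 11 for paralogues 1 to 4, 6 of 10 for paralogues 5 to 8 and 7 of 16 for paralogues 9 to 13. Their median differences in Msi1 against IgG were −0.34, −0.39 and −0.63. Hoxa5, Hoxa9 and Hoxb13, which are known in gut patterning or as markers of the hind end of the axis, were below every floor. Hoxa13 and Hoxd13, genes of the hindgut, were above the floor in all 3 precipitations and below it in input. Hoxa13 read 3.55, 5.46, 4.82 and 5.33 and Hoxd13 3.40, 5.94, 5.19 and 5.56 in input, IgG, Msi1 and hnRNP.

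The Hox genes above the input floor were Hoxa4, Hoxb1, Hoxb3, Hoxb9 and Hoxd4. Hoxa4 read 5.19 on the input array, 7.30 with IgG, 6.63 with Msi1 and 7.28 with hnRNP, so input was the lowest. Hoxb9, a gene of the trunk, read 5.25, 5.36, 5.59 and 6.21, with little between input and IgG. Hoxb1 read 4.78, 5.78, 5.54 and 5.81, and Hoxd4 was 4.15 on the input array, 5.45 with IgG and 4.81 with hnRNP. At a 99th percentile floor, 3 Hox genes were above it in input.

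The Hox clusters also hold microRNA genes, short RNAs that pair with messengers mainly through bases 2 to 8, the seed. Their mature sequences are shown because the miR-10 and miR-196 families each have members in more than 1 cluster and share a seed. Capitals mark the seed, and sequences are from RefSeq (GRCm38.p6).
miR-10a-5p: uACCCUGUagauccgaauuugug
miR-10b-5p: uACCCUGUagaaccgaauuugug
miR-196a-5p: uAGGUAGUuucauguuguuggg
miR-196b-5p: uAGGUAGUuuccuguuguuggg
The first 2 share one seed and the others another, and miR-196a arises from 2 genes, in the Hoxb and the Hoxc cluster. Mir196b, in the Hoxa cluster, read 3.73 on the input array, 5.50 with IgG, 3.98 with Msi1 and 5.10 with hnRNP, a difference of −1.51 in Msi1 against IgG. Mir10a (−1.18), Mir196a-1 (−1.47), Mir10b (−0.65) and Mir196a-2 (−0.19) were below every floor. Mir615, inside Hoxc5, was above all 4 floors, with 4.64, 5.93, 6.19 and 6.59. Of 2 of these genes detected in this comparison, 1 was lower past 2-fold and 0 higher. That gene, Mir196b, was below the Msi1 floor, and with its value raised to the floor 0 were lower. The array reads these genes through probe sets for the gene and does not separate precursor from mature RNA here.

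Of the 36 Fox genes detected in Msi1 or IgG, 1 passed 2-fold on the higher side (2.78%) and 2 on the lower (5.56%). Over all detected genes these shares were 18.6% and 6.92%, and over detected receptor genes 3.49% and 27.9%. Foxf2, a gene of gut mesenchyme, was the one member of the 3 families past 2-fold over IgG in Msi1. It read 3.27 on the input array, 3.67 with IgG, 5.26 with Msi1 and 5.38 with hnRNP, so it was above the floor with both antibodies and below it in input and IgG. The Msi1 value did not exceed the IgG floor, so no fold is given, and the call was lost with dimmer values raised, with a 99th percentile floor and with detection on both arrays. Its neighbours on the chromosome had other patterns. Foxq1, a gene of secretory epithelium, read 5.56 on the input array, 6.45 with IgG, 5.56 with Msi1 and 5.69 with hnRNP (−0.88 in Msi1 against IgG). Foxc1, a mesodermal gene, read 3.18, 5.48, 4.59 and 4.62 (−0.89).

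The 2 Fox genes lower in Msi1 than in IgG were Foxi1 and Foxo6. Foxi1, a regulator of ionocytes and other acid-secreting cells, read 3.87 on the input array, 5.81 with IgG, 4.38 with Msi1 and 4.89 with hnRNP. It was at least 2.10-fold lower in Msi1. Foxo6, the FoxO gene best known from brain, read 4.26, 6.26, 5.13 and 6.02 and was 2.19-fold lower, a call lost when arrays were centred on their medians. Foxr2 was just short of the threshold, with 2.86, 5.74, 4.74 and 4.26. Quantile-normalized values gave 1 Fox gene higher and 9 lower, and median centring 1 and 1.

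A set of Fox genes stood far above the input floor and lower in the precipitations. Foxo1, a target of insulin signalling, read 7.05 on the input array, 5.05 with IgG, 5.37 with Msi1 and 5.40 with hnRNP. Foxp1, a repressor of many tissues, read 6.53, 4.46, 4.99 and 4.32, and Foxp4, its relative in gut and lung epithelium, 6.83, 4.79, 5.33 and 5.30. These 3 genes were below the floor in IgG and above it in Msi1, where the floor is lower (4.74 against 5.26). Their differences in Msi1 against IgG were 0.32, 0.53 and 0.54, all under 2-fold. Foxj3, which acts in muscle and germ cells, read 7.12, 5.26, 5.64 and 4.75, and Foxj2 7.10, 5.73, 5.84 and 6.43. In the Foxa group, Foxa1 read 6.80, 5.79, 5.50 and 5.78, and Foxa3, a gene of liver and gut endoderm, 6.03, 4.93, 5.33 and 5.41, while Foxa2 stayed between 4.98 and 5.27 on all 4 arrays.

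Compared with input, the Msi1 array was lower past 2-fold for 8 Fox genes, 0 Sox genes and 0 Hox genes. Of all genes detected in this comparison, 38.4% were lower and 11.8% higher. Of detected receptor genes, 2.22% were lower and 32.2% higher. The 8 Fox genes of 33 detected were Foxo1 (−1.68, 3.20-fold), Foxp1 (−1.54), Foxp4 (2.82-fold), Foxj3 (−1.48), Foxa1 (−1.31), Foxj2 (−1.26), Foxn3 (−1.13) and Foxn2 (−1.04). Each was above the floor on both arrays. The other probe set of Foxn3 read 0.14 higher in Msi1 than in input, and the Foxn3 call was lost with the mean of probe sets. Past 2-fold over input in Msi1 were 6 of 13 detected Sox genes, 11 of 16 Hox genes and 12 of 33 Fox genes. Among them were Sox15 (4.47-fold), Hoxd9 (at least 4.02-fold), Foxl2 (at least 3.40-fold) and Foxr1 (at least 3.31-fold). The last 3 were below the floor in input, so they have no order. The direction of the Fox calls depended on scaling. Quantile normalization gave 10 higher and 0 lower, loess centring 12 and 0, and median centring 9 and 10. For Sox genes, median centring gave 4 higher and 1 lower. Measured from the receptor median, 1 Sox gene was higher and 2 lower, 5 Hox genes were higher and 0 lower, and 7 Fox genes were higher and 12 lower. With dimmer values raised, 21 members were higher and 8 lower, against 8.32% and 34.9% of all genes.

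Promoter sequence is shown for 5 of the 6 Fox genes that were past 2-fold lower than input in both IgG and Msi1. They were chosen for that difference, and Foxa1 and Foxj2 were still above the floor in every precipitation. Foxp1, the other gene, has several starts in the table and is not shown. Each line gives the 150 bases before the RefSeq start (GRCm38.p6), on the strand of the gene. Capitals mark the GC box GGGCGG, which Sp factors bind, and the CCAAT box, both searched on either strand.
Foxa1 (chr12:57546112-57546261, minus strand): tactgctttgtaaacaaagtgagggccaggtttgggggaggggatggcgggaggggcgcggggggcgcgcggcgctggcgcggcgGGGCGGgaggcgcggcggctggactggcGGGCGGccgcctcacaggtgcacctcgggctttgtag
Foxj2 (chr6:122820034-122820183, plus strand): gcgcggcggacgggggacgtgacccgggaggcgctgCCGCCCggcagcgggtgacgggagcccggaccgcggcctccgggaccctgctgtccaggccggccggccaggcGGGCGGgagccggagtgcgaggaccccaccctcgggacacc
Foxj3 (chr4:119539511-119539660, plus strand): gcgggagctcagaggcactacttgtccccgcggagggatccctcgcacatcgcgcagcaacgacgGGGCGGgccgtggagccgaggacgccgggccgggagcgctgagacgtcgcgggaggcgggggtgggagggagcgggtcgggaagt
Foxo1 (chr3:52268187-52268336, plus strand): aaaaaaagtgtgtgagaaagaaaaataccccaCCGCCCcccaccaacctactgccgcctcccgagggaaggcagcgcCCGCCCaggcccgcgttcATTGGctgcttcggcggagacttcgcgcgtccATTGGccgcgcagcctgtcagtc
Foxp4 (chr17:47924633-47924782, minus strand): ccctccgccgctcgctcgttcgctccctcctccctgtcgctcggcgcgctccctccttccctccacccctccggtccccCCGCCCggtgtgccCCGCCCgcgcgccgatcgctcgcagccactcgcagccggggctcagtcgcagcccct
At least 1 GC box lay in each of the 5 windows, and Foxo1 had 2 CCAAT boxes. Of all 32851 promoter windows of this length in the table, 28.6% held a GC box and 24.5% a CCAAT box. No window of the 5 held TATAAA on either strand, which 7.57% of all windows do. The 5 windows were 63.3% to 82% G or C, and the GC content of all windows was not measured. A match describes the letters only. The calls that picked these 5 genes in Msi1 against input were all lost with quantile normalization and with loess centring. Only 62 of the 99 members had a promoter in the table, so no such count was made over the families.

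In IgG against input, 10 of 14 detected Sox genes, 13 of 15 Hox genes and 17 of 35 Fox genes passed 2-fold on the higher side, against 16.6% of all genes. Of detected receptor genes, 48.4% were higher, beside 48.6% of the Fox genes. On the lower side were 0 Sox, 0 Hox and 7 Fox genes, against 44.7% of all genes and 2.11% of detected receptor genes. Foxj2 (2.58-fold) and Foxa1 (2.02-fold) were above both floors. The other 5 were below the IgG floor and have bounds and no order among them: Foxj3 at least 3.63-fold, Foxo1 at least 3.45-fold, Foxp4 at least 2.95-fold, Foxp1 at least 2.41-fold and Foxa3 at least 1.70-fold. The receptor genes, taken as unexpressed, had a median difference of 0.97 over all of them. Measured from that median, 5 Sox genes were higher and 2 lower, 7 Hox higher and 1 lower, and 6 Fox higher and 13 lower. Loess centring gave 23 Fox genes higher and 1 lower, quantile normalization 19 and 3, and median centring 14 and 8. Foxa1 and Foxj2 turned direction under loess centring, and Foxa1 also under quantile normalization. With dimmer values raised, 40 members were higher and 6 lower, against 16.6% and 35.2% of all genes. In hnRNP against input, 42 of 66 detected members were higher and 6 lower, against 18.6% and 43.4% of all genes. Of detected receptor genes, 50% were higher and 2.08% lower there. The comparisons of IgG and of Msi1 with input share the input array.

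**Figure D5:**
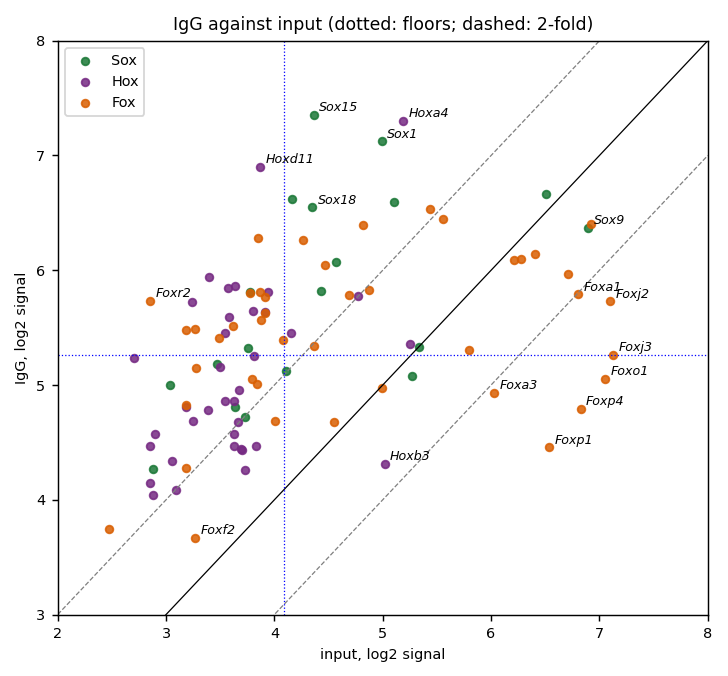
IgG signal against input signal (log2, 1 point per gene) for the Sox, Hox and Fox genes, with dotted lines at the 2 floors and dashed lines at 2-fold. Foxj2, Foxj3, Foxo1, Foxp1, Foxp4, Foxa1 and Foxa3 lie below the lower dashed line, and Sox15, Hoxd11, Sox18 and most Hox genes above the upper one.

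A further group of Fox genes was detected in input and within 2-fold in Msi1 against IgG. Foxk1 and Foxk2, widely expressed forkhead proteins, read 6.93 and 6.71 in input, 6.41 and 5.97 in IgG and 6.03 and 6.06 in Msi1. Foxo3, a FoxO factor of stress response, stayed between 6.09 and 6.30 on all 4 arrays. Foxo4 was lowest in input (4.69) and 5.57 to 6.00 in the precipitations. Foxm1, a regulator of mitosis in dividing cells, read 5.80, 5.30, 4.87 and 4.63. Foxn3, a checkpoint protein, had 2 probe sets that disagreed. The brighter read 6.40 on the input array, 6.14 with IgG, 5.28 with Msi1 and 5.64 with hnRNP, and the other 5.66, 4.89, 5.80 and 3.89, so Msi1 differed from IgG by −0.86 on one and by 0.91 on the other.

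Fox genes of mesenchyme and of other tissues lay low in input. Foxf1, the partner of Foxf2 in gut mesenchyme, was above a floor only in hnRNP (5.38) on 1 of its 2 probe sets and above none on the other. Foxl1, which marks telocytes beneath the crypt, read 3.62 on the input array, 5.51 with IgG, 5.23 with Msi1 and 5.06 with hnRNP. Of 7 stromal markers, 4 were detected in Msi1 or IgG, with 0 past 2-fold and a median of −0.18. The list's median signal lay between 4.80 and 5.09 on the 4 arrays, and its part in these values was not tested. Foxd3, a neural crest gene, read 3.85, 6.28, 5.63 and 6.41. Foxj1, the master gene of cilia, Foxp2, a gene of brain and lung, and Foxp3, which marks regulatory T cells, were below every floor.

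In hnRNP against IgG, few members passed 2-fold. Of 68 detected, 2 were higher past 2-fold (2.94%) and 1 lower (1.47%), against 6.28% and 4.52% of all genes. They were Foxf2 (1.71), Hoxb3 (1.51) and Foxr2 (−1.47), and with dimmer values raised 0 of the 3 were past 2-fold, against 1.71% and 1.17% of all genes. Median differences were −0.17 for Sox, 0.17 for Hox and 0.16 for Fox, against 0.07 for all detected genes. Foxf2 was thus past 2-fold over IgG with both antibodies, in comparisons that share the IgG array. Quantile normalization raised the Fox count to 5 higher and 5 lower.

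Genes that work with these factors were read on the same arrays. Of the 12 epithelial markers, all above the input floor, 6 were past 2-fold over IgG in Msi1 and 0 under it. Among all detected genes above the input floor, 21.4% were higher and 4.54% lower. Of 8 Hox cofactors of the Pbx, Meis and Pknox families, 5 were detected in Msi1 or IgG and 0 were 2-fold apart, with a median of −0.24. Pbx2 read 7.09 on the input array, 5.44 with IgG, 5.21 with Msi1 and 5.04 with hnRNP. Of 11 regulators of FoxO proteins, all above the input floor, 4 passed 2-fold on the higher side in Msi1 against IgG and 0 on the lower. Their median was 0.84. Of all detected genes 18.6% were higher, and of those above the input floor 21.4%. With dimmer values raised, 2 regulators were higher, beside 10.8% of all genes and 1116 of 8922 detected genes above the input floor. The 4 were Usp7 (1.74) and Pdpk1 (1.33), above both floors, and Pik3r1 and Pik3ca, which were below the IgG floor and under 2-fold when measured from it. They encode signalling proteins and a deubiquitinating enzyme upstream of FoxO. Akt1 and Akt2 differed by 0.00 and 0.12. The FoxO genes themselves differed by 0.32 (Foxo1), 0.04 (Foxo3), −0.21 (Foxo4) and −1.13 (Foxo6).

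Of 4 Wnt effectors that act with Sox proteins, 2 passed 2-fold over IgG in Msi1, Ctnnb1 (2.47) and Tcf7l2 (1.02), and 1 was lower, Tcf7l1 (−1.12). Over all detected genes, 18.6% were higher and 6.92% lower. Ctnnb1 was below the IgG floor, and with dimmer values raised 2 of these genes were higher and 1 lower. Of 6 Groucho corepressors, 5 were detected in Msi1 or IgG and 0 were past 2-fold, from Tle2 at −0.23 to Tle3 at 0.55. Of the 68 detected genes of the 88 other developmental regulators, 3 were higher (Gata4, Tbx3 and Gata6, all far above the floor in input) and 4 lower (Irx1, Six5, Tbx5 and the antisense transcript Irx3os). Tbx3 was below the IgG floor and Six5 and Tbx5 below the Msi1 floor, and with dimmer values raised 2 genes were higher and 2 lower. The median of that list was −0.36, next to −0.37 for the Sox, Hox and Fox genes. No test of a difference between these lists was made.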

How the data were processed

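RNA from crosslinked intestinal epithelium was read on Affymetrix Mouse Gene 1.0 ST arrays, 1 per group. The log2 values, 1 per probe set and array, are those the authors deposited. The submitters' processing notes name affy with no version. The sources used here do not give the background correction, the normalization or the base of the logarithm. The range of 1.07 to 14.3 fits base 2, and every fold rests on that. The arrays' standard deviations over 34760 probe sets ran from 1.17 to 2.01, so the values do not share 1 distribution.

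Groups came from the antibody in the labels. Of the probe sets, 21640 carried 1 gene symbol, 1321 several and 11799 none, and 1 of those with several held a symbol of this form and was left out. All 99 members matched RefSeq by Entrez identifier. For genes with several probe sets, the one with the highest mean was used. On arrays, signal over the floor takes the place of depth, and the number of arrays limits precision. A fold against a value below its floor is a bound against the floor.

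Members and lists were chosen with earlier results of these data known. Named genes are, in each family, members past 2-fold in Msi1 against IgG (up to 10 each way), Msi1 against input (up to 8), and hnRNP against IgG and IgG against input (up to 5), members whose probe sets differ in call, and well-known members set by name, 64 in all. Hoxb1, Hoxb4, Hoxb9, Hoxd4, Sox12, and Sox11, Hoxa6, Foxb1, Foxd2 and Foxh1 where they differ from hnRNP, were named after their values were seen. Counting was tested on simulated data. Tried in place of these were arrays centred on their medians, quantile-normalized or loess-centred (span 0.4), no floor or a 99th percentile one, detection required on both arrays, folds of 1.5 and 3, raising the dimmer value to its floor, and the mean or input-brightest probe set. Counts of Msi1 against hnRNP, and differences from the receptor median, were added after seeing the data. Python 3.11.15, pandas 2.3.3, numpy 2.4.6, statsmodels 0.14.6 and matplotlib 3.10.9 were used.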

Additional observations from a re-analysis of the deposited data

How the results depend on the processing

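Every value rests on 1 array per group, and 28 of the 99 members were above no floor. No paired analysis was possible because each group had 1 array. The median of all genes moved by 0.13 (median centring), 0.18 (loess centring) and 0.08 (quantile normalization) in Msi1 against IgG, and by −0.39, −0.31 and −0.27 in IgG against input. The cause of the changes below was not tested, except that stricter floors and thresholds leave fewer genes.

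Counts of members past 2-fold in either direction are given as deposited and then where they changed by over 1.5 times. In Msi1 against IgG, the Sox count of 3 was 8 with quantile normalization, 6 with loess centring, 5 with no floor, 8 at 1.5-fold, 1 with the 99th percentile floor, 1 at 3-fold and 0 with detection on both arrays. The Hox count of 2 was 5 with quantile normalization, 8 at 1.5-fold, 0 at 3-fold, and 1 with the 99th percentile floor, detection on both arrays, the dimmer value raised, or measured from the receptor median. The Fox count of 3 was 10 with quantile normalization, 12 at 1.5-fold, and 1 with the 99th percentile floor, with detection on both arrays and at 3-fold.

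In Msi1 against input, the Sox count of 6, all higher, was 1 at 3-fold and 3 measured from the receptor median, of which 1 was higher and 2 lower. The Hox count of 11 was 21 with no floor, 4 with the 99th percentile floor, 1 with detection on both arrays, 5 at 3-fold, 7 with the dimmer value raised and 5 from the receptor median. The Fox count of 20 was 12 with loess centring, 10 with quantile normalization, 11 with detection on both arrays and 8 at 3-fold. In Msi1 against hnRNP, the Sox count of 6 was 3 with median centring. The Hox count of 3 was 1 with median centring and 8 with quantile normalization, and the Fox count of 4 was 2 with median centring, 2 with loess centring and 13 with quantile normalization.

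In hnRNP against IgG, the Sox count of 0 was 1 with quantile normalization and 4 at 1.5-fold. The Hox count of 1 was 3 with quantile normalization, 4 at 1.5-fold, and 0 with detection on both arrays, at 3-fold or with the dimmer value raised. The Fox count of 2 was 10 with quantile normalization, 15 at 1.5-fold, 1 at 3-fold, and 0 with the 99th percentile floor, detection on both arrays or the dimmer value raised. In IgG against input, the Sox count of 10 was 6 with the 99th percentile floor and 5 at 3-fold. The Hox count of 13 was 28 with no floor, 4 with the 99th percentile floor, 3 with detection on both arrays and 8 from the receptor median. The Fox count of 24 was 12 with the 99th percentile floor and 7 with detection on both arrays.

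With the floor at the 99th percentile, members above it numbered 6 Sox and 3 Hox in input, 4 Hox and 11 Fox in IgG, and 7 Sox, 6 Hox and 15 Fox in Msi1. Direction reversed for Foxa1 in IgG against input (0.95 with loess centring, 0.18 with quantile normalization) and, under loess centring, for Foxj2 against input in Msi1 (0.19) and in IgG (0.75). The mean of probe sets and the input-brightest probe set changed no family count by over 1.5 times, and Foxn3 in Msi1 against IgG was 0.02 with the mean.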
